A study of Mus musculus with 35 samples.

Results

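Eukaryotic translation initiation factors were examined across all libraries of a study of acidity and IL-2 in cytotoxic T cells. The members were the protein-coding genes whose symbol begins with Eif followed by a digit from 1 to 6, without the Eif4ebp genes, which encode inhibitors. This rule gave 52 genes of the 48709 in the tables, and it used no measured value.

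RNA was sequenced from OT-I CTLs, which are CD8+ T cells of mice whose T cells carry a single transgenic receptor, primed with anti-CD3 and anti-CD28 and expanded with murine IL-2 before the experiment. A first group was taken at 0 h, with no treatment. The other groups were taken after 24 h in medium at pH 7.4, pH 7 or pH 6.6, set with HCl, with 200 IU/mL murine IL-2 or without IL-2. Each of the 7 groups held 5 biological replicates, which makes 35 libraries, and dead cells were removed on Ficoll before RNA extraction.

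Initiation factors bring the small ribosomal subunit, the initiator tRNA and an mRNA together at the start codon. eIF2 carries the initiator tRNA and is recharged by its exchange factor eIF2B, eIF3 is a large scaffold on the small subunit, and eIF4F is the cap-binding complex of eIF4E, eIF4G and eIF4A. Kinases that phosphorylate the alpha subunit of eIF2 slow most initiation, and in T cells the translation machinery is known to grow with activation and with cytokine signalling.

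Of the 52 members, 50 passed the filter on low counts and were tested among 13819 genes. Eif3j2 stayed at or below 0.381 CPM (read counts scaled to a common library size) in every library. Reads that align to several places were not counted, and 8.2% of the 50-base windows of Eif3j2 were found in no other gene. Its level is therefore uncertain. Eif4e1b, an eIF4E relative of oocytes, had 0 counts in 35 of 35 libraries. A count of 0 allowed up to 0.0881 to 0.179 CPM, depending on the library (3 counts of its total). Total counts on genes ran from 16721319 to 34033340 per library, and these intervals and floors cover counting error only.

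The defining markers of the labelled cell type were present. Cd3e ran from 374 to 631 CPM, Cd8a from 674 to 1596 CPM and Trac from 300 to 780 CPM over the 35 libraries. Markers of B cells, of myeloid cells and of red cells each summed to at most 3.35 CPM in any library, and Ms4a1 and Hbb-bs had 0 counts throughout. The NK gene Klrb1c ran from 8.27 to 94.9 CPM with Ncr1 at 0.0694 CPM or less, and Cd4 and Foxp3 together stayed at 5.50 CPM or less. The 6 CD8 effector markers, of which Gzmb varied most (36.7 to 9010 CPM), summed to between 9188 and 11980 CPM at 0 h. Their sum ran from 8842 to 11440 CPM at pH 7.4 + IL-2, 2820 to 3989 CPM at pH 6.6 + IL-2 and 2265 to 2703 CPM at pH 7.4, and from 2168 to 2462 CPM at pH 6.6 without IL-2. The sum mainly follows Gzmb and not the whole list. With IL-2 at pH 6.6, 2 of the 6 markers were lower (Gzmb and Prf1) and 2 were higher (Cd3e and Trac), with a median log2 fold change of 0.12. Without IL-2, 4 were lower and 1 was higher, with a median of -0.43, while most members below were higher. The part of these markers in the members' values was not tested. In bulk RNA, fewer cells of a type and less RNA per cell cannot be told apart.

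The proximal promoters of the members were read from RefSeq (GRCm38.p6), as windows from 250 bases before to 50 bases after each annotated start, and 42 of the 52 members had at least 1 window. The E-box CACGTG, which is its own reverse complement, was in a window of 10 of these 42 genes (23.8%), against 2187 of all 27025 genes with a window (8.09%). The letters are a description of these windows, with no test. The stretches below are shown because they come from members described below, which moved in either direction, and each has the E-box in capitals.
Eif4a1: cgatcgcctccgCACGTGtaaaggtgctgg
Eif4g1: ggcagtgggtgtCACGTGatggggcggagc
Eif5a: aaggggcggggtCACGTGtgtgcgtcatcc
Eif5a2: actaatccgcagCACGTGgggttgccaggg
Eif3f: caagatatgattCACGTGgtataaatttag
The Eif4a1 stretch is at chr11:69672595-69672624 on the minus strand, upstream of the annotated gene, with the E-box beginning 189 bases before the start. The Eif4g1 stretch is at chr16:20672661-20672690 on the plus strand, 54 bases before a start that lies inside the gene, in an intron of longer transcripts. The Eif5a stretch is at chr11:69921443-69921472 on the minus strand, intronic in longer transcripts and 74 bases before the nearest RefSeq start. The Eif5a2 stretch is at chr3:28781123-28781152 and the Eif3f stretch at chr7:108934335-108934364, both on the plus strand and upstream of the gene. Eif4e also had the E-box, 64 and 228 bases before its RefSeq start, and the letters are not in the window of Eif4a2. Of the 10 members with the E-box, Eif4a1, Eif4g1, Eif5a, Eif5a2, Eif4e, Eif4h and Eif1b were lower at pH 6.6 with IL-2, Eif3f was higher, and Eif3a and Eif3k did not pass the test. In that comparison 62% of the tested members and 40.9% of all genes tested were lower. A link between the E-box and the direction of change was not tested.

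With IL-2 in the medium, most initiation factors were lower in acid (pH 6.6) than in neutral medium (pH 7.4). In edgeR's quasi-likelihood test, 31 of the 50 tested members were lower and 9 were higher, where 40.9% of all genes tested were lower and 35.4% were higher. The median log2 fold change of the members was -0.47, against -0.07 over all genes, and it lay between -0.52 and -0.41 in the 5 replicate pairs. Of the 31, 15 fell by at least 2-fold, and of the 9, Eif4a2 and Eif2ak3 rose by at least 2-fold. The shares of all genes past 2-fold were not computed. Between members the log2 fold changes ran from -2.03 to 1.41.

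**Figure D1:**
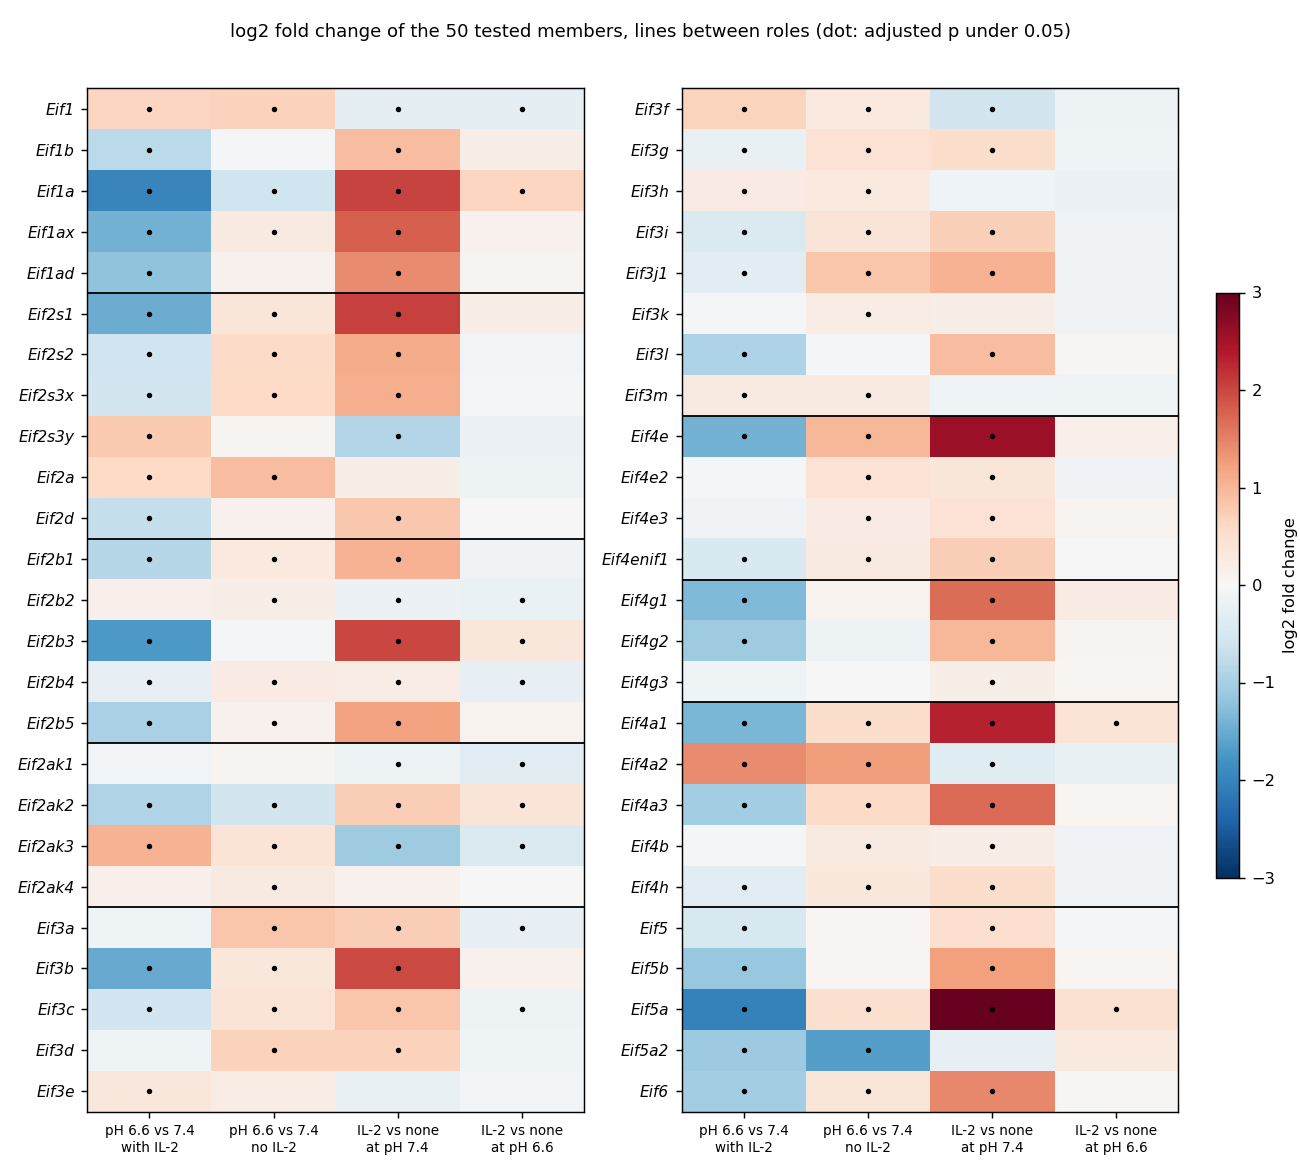
Heat map of log2 fold changes for the 50 tested members (rows, grouped by role with lines between roles) in 4 comparisons (columns), where blue is lower, red is higher and a dot marks an adjusted p under 0.05. The column for pH 6.6 with IL-2 is mostly blue (31 lower, 9 higher), the column for pH 6.6 without IL-2 is mostly pale red (34 higher, 3 lower), the column for IL-2 at pH 7.4 is mostly red (36 higher, 7 lower) and the column for IL-2 at pH 6.6 is nearly blank (5 higher, 7 lower).

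The eIF4F complex recognizes the mRNA cap and unwinds the leader. Eif4e (chr3:138526179-138559696, plus strand) encodes the cap-binding protein itself. Over replicates 1 to 5, its level was 159, 162, 157, 155 and 158 CPM at pH 7.4 + IL-2. It was 59.1, 59.0, 59.1, 58.1 and 61.3 CPM at pH 6.6 + IL-2. All 5 acid libraries lay far below the 5 neutral ones, and the groups did not overlap. The log2 fold change was -1.42 ± 0.09 (SE; adjusted p = 1.6e-15). Without IL-2, Eif4e was at 26.8 ± 3.61 CPM at pH 7.4 and at 26.8 ± 3.90 CPM at pH 7, its lowest levels, and at pH 6.6 it was at 53.4 ± 3.72 CPM (SD, n = 5). That rise was 1.00 ± 0.09 on the log2 scale (adjusted p = 3.6e-11), with no overlap between the groups. The pH effects with and without IL-2 thus had opposite signs for Eif4e, and their difference was -2.41 on the log2 scale (interaction, adjusted p = 6.5e-17).

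Eif4g1 encodes the scaffold that holds eIF4E, eIF4A and eIF3 together. It was measured at 803, 987, 888, 825 and 754 CPM at pH 7.4 + IL-2 and at 362, 329, 294, 347 and 359 CPM at pH 6.6 + IL-2, with no overlap. Its log2 fold change was -1.33 ± 0.10 (adjusted p = 9.5e-14). Without IL-2 the difference was 0.12 ± 0.10 (adjusted p = 0.30). Eif4g2, an eIF4G relative that lacks the eIF4E binding part, had a log2 fold change of -1.06 ± 0.09 with IL-2 (adjusted p = 2.8e-12), while that of Eif4g3, a second full-length scaffold, was -0.13 ± 0.08 (adjusted p = 0.12).

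The eIF4A helicases differed in direction. Eif4a1 and Eif4a2 encode close paralogs of the RNA helicase of eIF4F. Eif4a1 was at 414, 361, 377, 402 and 421 CPM at pH 7.4 + IL-2 and at 150, 130, 130, 179 and 183 CPM at pH 6.6 + IL-2. Eif4a2 was at 362, 348, 382, 381 and 389 CPM at pH 7.4 + IL-2 and at 773, 1069, 1163, 955 and 1030 CPM at pH 6.6 + IL-2. Neither gene had overlapping groups, and every acid library was lower for Eif4a1 and higher for Eif4a2. The log2 fold changes were -1.37 ± 0.09 for Eif4a1 (adjusted p = 2.2e-15) and 1.41 ± 0.10 for Eif4a2 (adjusted p = 8.5e-15). Eif4a2 also rose at pH 6.6 without IL-2, by 1.26 ± 0.10 on the log2 scale (adjusted p = 5.4e-13), and its pH effect with and without IL-2 differed by 0.15 ± 0.13 (adjusted p = 0.31).

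Per kilobase of exon (RPKM), Eif4a1 made up 56.6% ± 1.34 (SD, n = 5) of the sum of both paralogs at pH 7.4 + IL-2, and 47.3% ± 3.46 at 0 h. This share was 50.0% ± 1.84 at pH 7 + IL-2 and 16.2% ± 3.36 at pH 6.6 + IL-2. Without IL-2 it was 16.97% ± 1.72 at pH 7.4, 15.7% ± 1.14 at pH 7 and 11.1% ± 1.64 at pH 6.6. The helicase pair was thus near parity or tilted to Eif4a1 at 0 h and in both less acid IL-2 groups, and Eif4a2 prevailed in the other groups. The lowest value of the former groups, 42.1%, lay above the highest of the latter, 19.5%. Reads that align to several places were not counted, and 71.6% of the 50-base windows of Eif4a1 and 86.4% of those of Eif4a2 were found in no other gene, so these shares are uncertain as levels. Other genes on the same strand, Snora81 and Snord2 among those in Eif4a2, overlap 6.6% of the exons of Eif4a1 and 9.6% of those of Eif4a2.

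**Figure D2:**
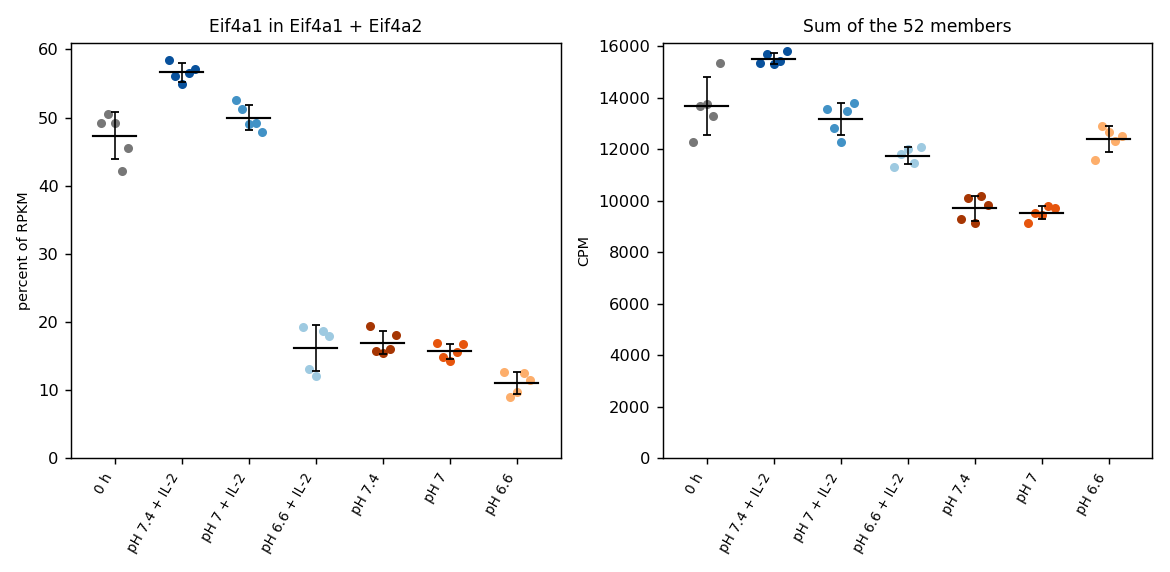
Left, share of Eif4a1 in the RPKM sum of Eif4a1 and Eif4a2 (percent), and right, sum of all 52 members (CPM), for each library by group, with points as libraries, long bars as means and error bars as SD (n = 5). The Eif4a1 share is between 42.1 and 58.5% at 0 h and in both less acid IL-2 groups, and at most 19.5% elsewhere, while the member sum is highest at pH 7.4 + IL-2 (15320 to 15800 CPM).

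The other helicase factors moved less. Eif4a3, an exon junction helicase, fell by 1.05 on the log2 scale with IL-2 (adjusted p = 2.1e-14) and Eif4h, a helicase cofactor, fell by 0.31 (adjusted p = 1.8e-05). Eif4b, the other cofactor, had a log2 fold change of -0.04 ± 0.05 (adjusted p = 0.48). In the eIF4E group, 4 members (eIF4E, its relatives and its transporter) were tested. Eif4e and the transporter Eif4enif1 were lower, and the eIF4E relatives Eif4e2 (-0.04 ± 0.07) and Eif4e3 (-0.10 ± 0.07) did not pass the test. Eif4e2, which binds the cap but not eIF4G, can repress translation.

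**Figure D3:**
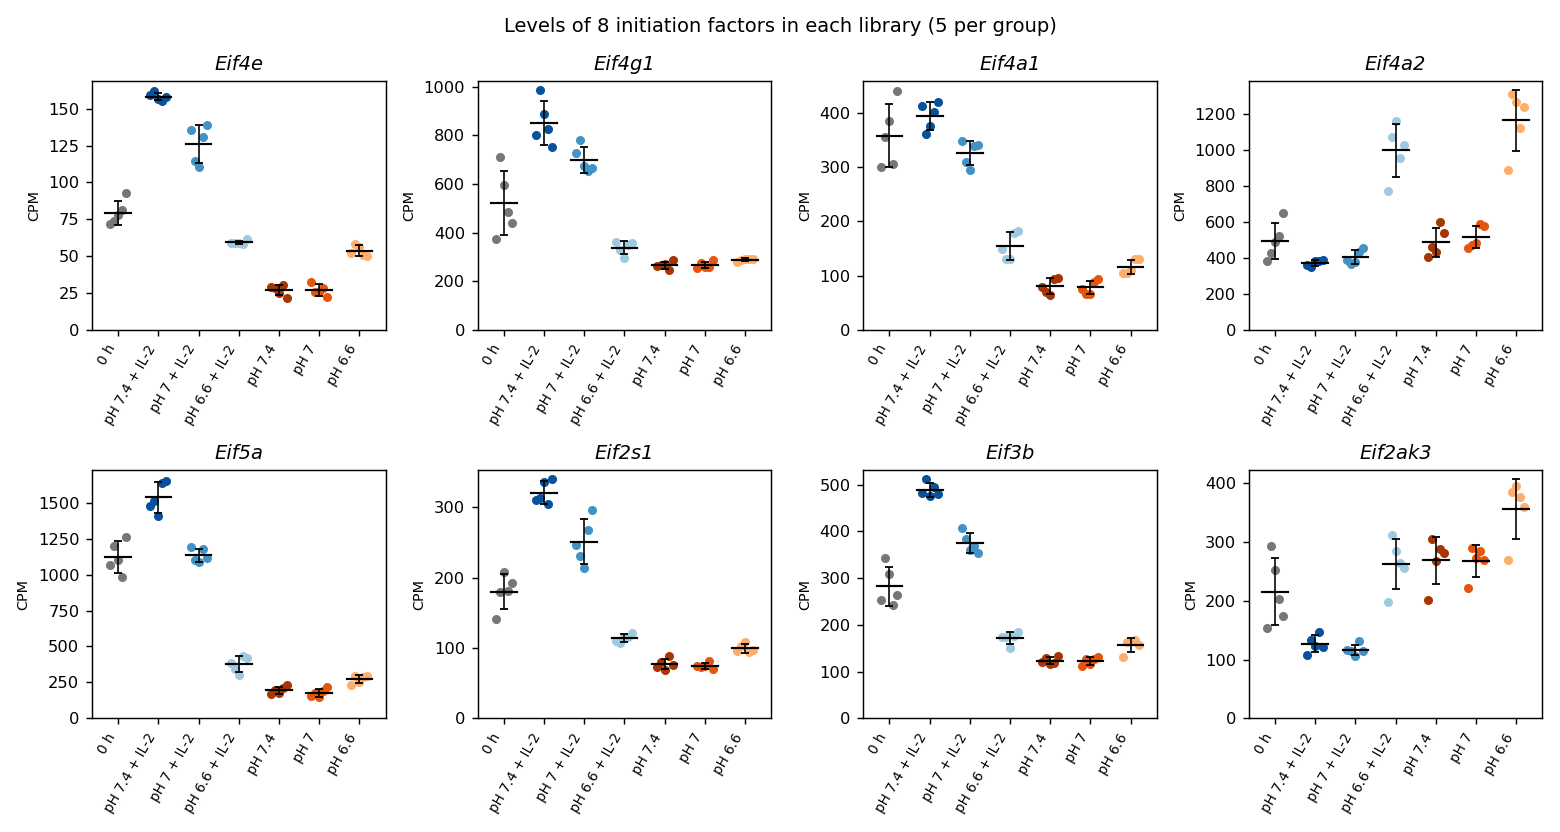
Levels of 8 initiation factors (CPM, linear axes from 0) in each library, by group, with points as libraries, long bars as means and error bars as SD (n = 5). Eif4e, Eif4g1, Eif4a1, Eif5a, Eif2s1 and Eif3b stand highest at pH 7.4 + IL-2 and low at pH 6.6 + IL-2 (Eif5a 1409 to 1654 against 301 to 433 CPM), while Eif4a2 and Eif2ak3 are higher at pH 6.6 + IL-2.

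The largest fall was in Eif5a (chr11:69916714-69921958, minus strand), which encodes the hypusine-bearing factor eIF5A that helps ribosomes past slow peptide bonds. Its level was 1475, 1510, 1409, 1637 and 1654 CPM at pH 7.4 + IL-2, 386, 346, 301, 433 and 422 CPM at pH 6.6 + IL-2, and 172, 196, 175, 208 and 229 CPM at pH 7.4. The neutral libraries with IL-2 exceeded all others, with no overlap in any of these pairs of groups. The log2 fold change at pH 6.6 with IL-2 was -2.03 ± 0.08 (adjusted p = 2.5e-20), and that of IL-2 at pH 7.4 was 2.98 ± 0.08 (adjusted p = 1.6e-24), a 7.88-fold difference. By RPKM, Eif5a was the highest member at pH 7.4 + IL-2 (647 ± 44.4) and at 0 h (472 ± 46.0), above Eif3h (277 ± 29.6 and 327 ± 70.7). At pH 7.4 without IL-2 Eif3h stood first (300 ± 20.6 RPKM) and Eif5a was at 82.4 ± 9.91 RPKM. Eif3h has 79.7% unique windows.

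The paralog Eif5a2 was low (chr3:28781276-28798846, plus strand) and fell at pH 6.6 in both media. It was at 29.5, 22.3, 21.5, 17.9 and 14.3 CPM at pH 7.4 + IL-2, and at 12.9, 8.04, 9.86, 9.33 and 8.70 CPM at pH 6.6 + IL-2. Without IL-2 it was at 28.3, 22.8, 26, 26.5 and 20.7 CPM at pH 7.4, and at 9.55, 8.76, 8.27, 6.06 and 6.86 CPM at pH 6.6. Neither pair of groups overlapped. At pH 7 it was at 21.3 ± 2.51 CPM with IL-2 and 23.5 ± 2.75 CPM without (SD, n = 5), with log2 differences from pH 7.4 of 0.03 ± 0.14 (adjusted p = 0.90) and -0.08 ± 0.14 (adjusted p = 0.99). At pH 6.6 the log2 fold changes were -1.10 ± 0.15 with IL-2 (adjusted p = 6.9e-08) and -1.66 ± 0.15 without (adjusted p = 3.6e-11), and that of IL-2 at pH 7.4 was -0.26 ± 0.14 (adjusted p = 0.10). Eif5a2 was described after its values were seen, since it was the member with the lowest fold change without IL-2.

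The remaining late and other factors were lower with IL-2 at pH 6.6. Eif6, which keeps the ribosomal subunits apart, went from 112, 106, 102, 119 and 115 CPM to 54.1, 52.6, 44.5, 58.7 and 59.7 CPM without overlap, a log2 fold change of -1.04 ± 0.09 (adjusted p = 8.2e-12). Eif5b, the GTPase that joins the subunits, fell by 1.14 (adjusted p = 2.6e-12), and Eif5, which activates the GTPase of eIF2, fell by 0.48 (adjusted p = 5.1e-06). Of the exons of Eif5b, 16.8% lie opposite those of Rev1.

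eIF2 and the factors that can stand in for it were divided. Eif2s1, the alpha subunit that the stress kinases phosphorylate, was at 310, 314, 336, 305 and 340 CPM at pH 7.4 + IL-2 and at 111, 107, 116, 116 and 121 CPM at pH 6.6 + IL-2. All acid libraries were lower, and the log2 fold change was -1.49 ± 0.08 (adjusted p = 5.4e-17). Eif2s2, the beta subunit, and Eif2d, which can deliver tRNA without eIF2, were lower as well (-0.61 ± 0.13 and -0.71 ± 0.07). The gamma subunit has an X-linked and a Y-linked copy. Eif2s3x was lower (-0.56 ± 0.10, adjusted p = 9.8e-06), with groups that overlapped. Eif2s3y (chrY:1010543-1028847, plus strand) went from 161, 141, 124, 119 and 143 CPM to 246, 254, 262, 189 and 238 CPM without overlap, and rose by 0.80 ± 0.10 (adjusted p = 8.0e-09). Only 65.4% of the windows of Eif2s3x are unique, against 100% of those of Eif2s3y, so no ratio of the copies is given. Eif2a, a separate protein that can bring initiator tRNA to the ribosome, was at 147, 136, 145, 132 and 160 CPM at pH 7.4 + IL-2 and at 214, 209, 249, 187 and 221 CPM at pH 6.6 + IL-2. It rose by 0.59 ± 0.11 with IL-2 (adjusted p = 9.9e-06) and by 0.92 ± 0.11 without (adjusted p = 6.5e-09).

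Of the 5 eIF2B subunits, 4 were lower at pH 6.6 with IL-2, where 40.9% of all genes tested were lower. Eif2b3, the gamma subunit, was at 44.6, 42.0, 43.1, 40.5 and 46.1 CPM at pH 7.4 + IL-2 and at 15.8, 10.1, 10.99, 14.9 and 14.7 CPM at pH 6.6 + IL-2. The groups did not overlap, and the log2 fold change was -1.72 ± 0.10 (adjusted p = 5.2e-16). Eif2b5, the catalytic epsilon subunit, fell by 0.97 (adjusted p = 1.2e-16) and Eif2b1 by 0.87 (adjusted p = 3.1e-14). Eif2b4 was slightly lower (-0.24 ± 0.08, adjusted p = 0.0115), with groups that overlapped, and Eif2b2 had a value of 0.15 ± 0.07 (adjusted p = 0.059).

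The eIF2alpha kinases each sense a different stress. Eif2ak3, or PERK, the kinase of the endoplasmic reticulum, was at 109, 134, 123, 146 and 122 CPM at pH 7.4 + IL-2 and at 198, 311, 285, 264 and 256 CPM at pH 6.6 + IL-2. All acid libraries were higher, by 1.04 ± 0.09 (adjusted p = 6.9e-12). Without IL-2, Eif2ak3 was at 269 ± 40.5 CPM at pH 7.4 (SD, n = 5) and rose by 0.41 ± 0.09 at pH 6.6 (adjusted p = 0.00023), with overlap. Eif2ak2, or PKR, the kinase that binds double-stranded RNA, was lower with IL-2 (-0.90 ± 0.13, adjusted p = 2.1e-07) and without it (-0.55 ± 0.13, adjusted p = 0.00049). Eif2ak1, the heme-regulated kinase, and Eif2ak4, the amino acid sensor GCN2, did not pass the test with IL-2 (-0.08 ± 0.06 and 0.14 ± 0.07).

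The genes of the start codon factors eIF1 and eIF1A and their relatives by symbol were mostly lower. Eif1a (chr18:46597701-46616456, plus strand), an eIF1A gene, was at 199, 169, 164, 160 and 162 CPM at pH 7.4 + IL-2 and at 58.8, 35.5, 37.8, 42.8 and 44.2 CPM at pH 6.6 + IL-2. There was no overlap, and the log2 fold change was -1.97 ± 0.12 (adjusted p = 3.5e-16). The X-linked Eif1ax fell by 1.42, Eif1ad by 1.197 and Eif1b by 0.80. Eif1, which guards the fidelity of start codon choice, went the other way, from 265, 292, 313, 342 and 400 CPM to 414, 541, 529, 500 and 532 CPM. The groups did not overlap, and it rose by 0.65 ± 0.08 with IL-2 (adjusted p = 6.6e-09) and by 0.68 ± 0.08 without (adjusted p = 4.7e-09). Of its windows, 80.8% are unique.

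Subunits of eIF3 went in both directions, with 6 of the 13 tested lower and 4 higher at pH 6.6 with IL-2. Over all genes tested, 40.9% were lower and 35.4% higher, so these counts were near the background. Of the 13 tested, Eif3b, Eif3l, Eif3c, Eif3i, Eif3j1 and Eif3g were lower with IL-2 at pH 6.6, Eif3f, Eif3e, Eif3m and Eif3h were higher, and Eif3a, Eif3d and Eif3k did not pass. Eif3b, a core subunit, had the largest fall. It was at 482, 512, 475, 495 and 479 CPM at pH 7.4 + IL-2 and at 175, 173, 150, 177 and 184 CPM at pH 6.6 + IL-2, a log2 fold change of -1.51 ± 0.08 (adjusted p = 1.2e-17). Eif3f, a subunit with an MPN domain, had the largest rise. It was at 404, 372, 392, 426 and 445 CPM at pH 7.4 + IL-2 and at 646, 664, 672, 620 and 644 CPM at pH 6.6 + IL-2, a log2 fold change of 0.67 ± 0.08 (adjusted p = 1.1e-08). Neither subunit had overlapping groups. Eif3e, a PCI subunit, was at 514.8, 459.2, 510.0, 467.4 and 546.8 CPM at pH 7.4 + IL-2 and at 641.1, 601.6, 710, 583.5 and 636.9 CPM at pH 6.6 + IL-2, a rise of 0.35 ± 0.11 (adjusted p = 0.0044). Eif3m, also a PCI subunit, was at 258.7, 240.2, 257.1, 235.9 and 261.1 CPM and at 307.2, 279.7, 319.4, 284.2 and 314.2 CPM in these groups, a rise of 0.26 ± 0.09 (adjusted p = 0.0091). Both rises were smaller than that of Eif3f but without overlap, and that of Eif3h (0.25 ± 0.09, adjusted p = 0.0093) came with overlap. Eif3f, Eif3h, Eif3e and Eif3m belong to the part of the complex that carries its MPN and PCI domains, as do Eif3c, Eif3l, Eif3a and Eif3k, which were not higher. Counts of Eif3j1 (49.1% unique windows, shared with Eif3j2) and Eif3d (62.8%) are uncertain.

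**Figure D4:**
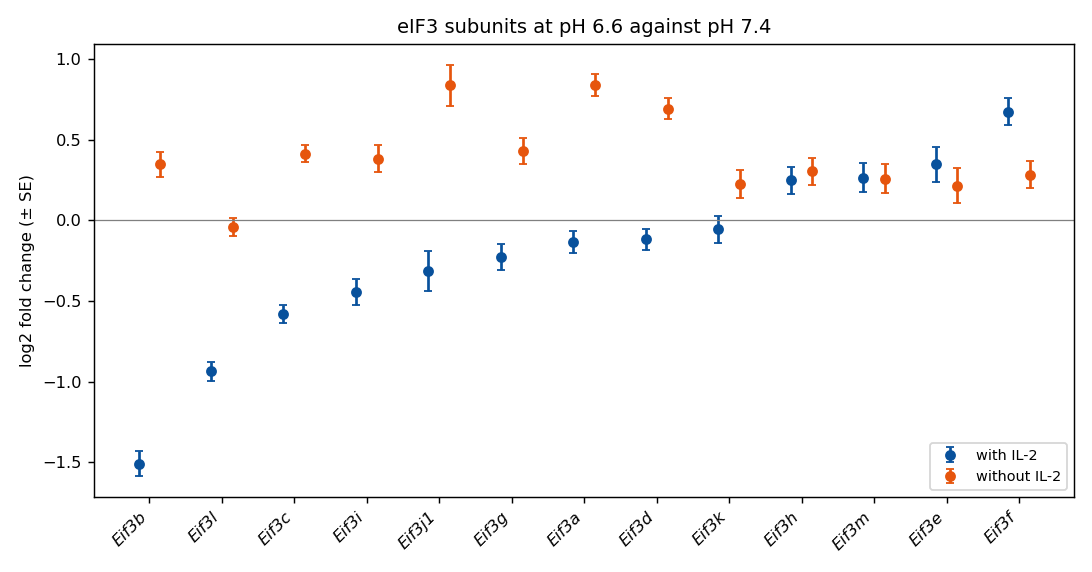
log2 fold change of pH 6.6 over pH 7.4 for the 13 tested eIF3 subunits, with IL-2 (blue) and without IL-2 (orange), ordered by the value with IL-2; error bars are SE from the fit. With IL-2 the values run from -1.51 (Eif3b) to 0.67 (Eif3f), and without IL-2 from -0.04 (Eif3l) to 0.84 (Eif3a and Eif3j1).

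Without IL-2, acidity moved the members the other way. At pH 6.6 against pH 7.4, 34 of the 50 were higher and 3 were lower (Eif5a2, Eif1a and Eif2ak2), where 31.6% of all genes tested were higher and 35.4% lower. Their median was 0.27 on the log2 scale, and that of all genes was -0.03. With library totals as the only scaling, which moved the median of all genes to -0.19, 20 members were higher and 5 lower, and Eif2b5 changed sign (0.13 to -0.02). Of all genes, 23.2% were then higher and 43.8% lower. Without that change of scaling, all 4 tested members of the eIF4E group, all 5 helicase factors and 11 of the 13 eIF3 subunits were higher. None of the 3 scaffolds passed the test. After Eif4a2 and Eif4e, the largest rises were those of Eif2a (0.92 ± 0.11), Eif3a (0.84 ± 0.07) and Eif3j1 (0.84 ± 0.13). Eif3a, the largest subunit of eIF3, was at 398, 429, 418, 430 and 398 CPM at pH 7.4 and at 736, 771, 765, 707 and 729 CPM at pH 6.6, with no overlap (adjusted p = 3.9e-12). It was picked after its values were seen, as were the partners named below.

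The interaction of pH 6.6 with IL-2 was tested directly. It was below 0 for 35 members and above 0 for 4, against 32.8% and 34.3% of all genes tested, with a median of -0.78 on the log2 scale. Of the 31 members that were lower with IL-2, 19 were higher without it. For these 19 an interaction below 0 follows from that selection, since it is the difference of both effects, and all 19 passed the test. Another 9 did not pass without IL-2, and these also had an interaction below 0, which their selection favours. The shares of all genes with such pairs of calls, here and below, were not computed. Eif1a, Eif2ak2 and Eif5a2 were lower in both media. Of the 9 members that were higher with IL-2, 7 were also higher without it (Eif1, Eif2a, Eif2ak3, Eif3f, Eif3h, Eif3m and Eif4a2). For Eif1, Eif3h, Eif3m and Eif4a2 the difference of the effects was at most 0.15 on the log2 scale and did not pass the test, with SE from 0.11 to 0.13.

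**Figure D5:**
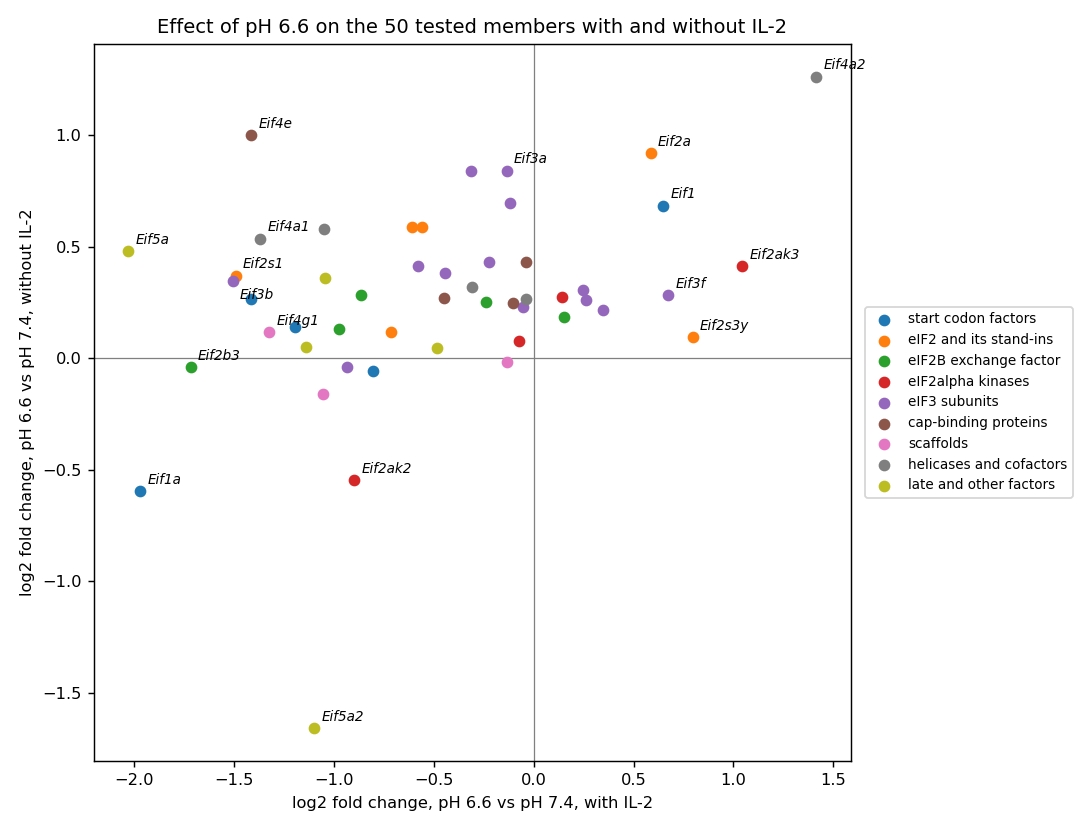
log2 fold change of pH 6.6 over pH 7.4 with IL-2 (x axis) and without IL-2 (y axis), with each point a tested member coloured by role; the axes share no library. Most points lie in the upper left, with Eif5a at -2.03 and 0.48 and Eif4e at -1.42 and 1.00, while Eif4a2 (1.41 and 1.26) is at the upper right and Eif5a2 (-1.10 and -1.66) at the lower left.

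IL-2 raised most members at pH 7.4. With IL-2, 36 members were higher and 7 lower than without it, where 39.3% of all genes tested were higher and 41.1% were lower. The members had a median log2 fold change of 0.73. With library totals as the only scaling, which put the median of all genes at -0.20, 33 were higher and 11 lower. Of all genes, 34.2% were then higher and 46.6% lower. The largest rises were those of Eif5a (2.98 ± 0.08), Eif4e (2.56 ± 0.09), Eif4a1 (2.31 ± 0.09) and Eif2s1 (2.06 ± 0.08). The 7 lower members were Eif2ak3 (-1.08 ± 0.09), Eif2s3y (-0.87 ± 0.10), Eif3f (-0.55 ± 0.08), Eif4a2 (-0.37 ± 0.09), Eif1 (-0.27 ± 0.08), Eif2b2 (-0.17 ± 0.07) and Eif2ak1 (-0.16 ± 0.06). At pH 7 the counts were 34 higher and 8 lower (37.6% and 39.5% of all genes), with a median of 0.49.

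At pH 6.6 the same comparison gave 5 members higher and 7 lower, where 13.2% of all genes were higher and 10.6% lower, so both shares were near the background, and a median of -0.05. The 5 higher were Eif1a (0.65 ± 0.12, adjusted p = 0.00010), Eif5a (0.47 ± 0.08, adjusted p = 3.6e-05), Eif4a1 (0.40 ± 0.09), Eif2ak2 (0.38 ± 0.13) and Eif2b3 (0.34 ± 0.11). The 7 lower were Eif2ak3 (-0.44 ± 0.09), Eif2ak1 (-0.31 ± 0.06), Eif1 (-0.30 ± 0.08), Eif2b4 (-0.26 ± 0.08), Eif3a (-0.25 ± 0.07), Eif2b2 (-0.20 ± 0.07) and Eif3c (-0.16 ± 0.05). Eif4e, which had the second largest response to IL-2 at pH 7.4, had a value of 0.15 ± 0.09 here (adjusted p = 0.23). These counts depended on the fit, as did the shares of all genes. When only the compared groups were fitted, 13 were higher and 12 lower, where 22.4% and 20.5% of all genes were. With library totals alone, 8 were higher and 3 lower, where 16.3% and 5.56% of all genes were. With a replicate left out, 3 to 5 members were higher (3 without replicate 4 or replicate 5). In these fits 3 to 5 were lower (3 without replicate 2, and 4 without replicate 1 or replicate 4). Of all genes, 9.79 to 13.2% were then higher and 5.46 to 7.76% lower. Without the replicate block, 4 were higher and 4 lower, where 10.9% and 6.59% of all genes were.

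At pH 7 with IL-2, the members were also lower, by less. Against pH 7.4, 29 were lower and 0 higher, where 9.83% of all genes tested were lower and 9.15% higher, and the median was -0.23. None reached 2-fold, and the values ran from -0.47 (Eif3j1) to 0.11 (Eif4a2, adjusted p = 0.45). No member was higher by DESeq2 either, and 33 of the 50 had an unadjusted p under 0.05, in either direction. The share of all genes at that unadjusted threshold was not computed, here or for pH 7 without IL-2. This comparison shares its pH 7.4 libraries with that at pH 6.6, and the levels are given side by side. Eif5a was at 1189, 1102, 1089, 1178 and 1117 CPM at pH 7 + IL-2, below every pH 7.4 library and above every pH 6.6 library. The count of lower members was 13 without replicate 3 and 18 without replicate 2, and 18 with library totals alone. In these settings 4.59%, 5.48% and 6.27% of all genes were lower. Without IL-2, pH 7 and pH 7.4 gave 0 members higher and 0 lower by edgeR's test and by DESeq2, where 1.36% and 0.318% of all genes were called, and 1 member had an unadjusted p under 0.05.

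Against the cells at 0 h, the culture at pH 7.4 with IL-2 had 27 members higher and 10 lower (29% and 30.9% of all genes), with a median of 0.21. Eif4e rose by 0.99 ± 0.09 and Eif2s1 by 0.84 ± 0.08, while Eif2ak3 fell by 0.74 and Eif1 by 0.73. The count of lower members was 6 without replicate 5, where 28.7% of all genes were lower. At pH 7.4 without IL-2, 4 were higher and 35 lower than at 0 h (36.9% and 38.3% of all genes), with a median of -0.46. Eif5a fell by 2.53 and Eif4a1 by 2.17, and the 4 higher members were Eif5a2, Eif2s3y, Eif2ak1 and Eif2ak3. At pH 6.6 with IL-2, 7 were higher and 26 lower (30.5% and 38% of all genes), with a median of -0.21. With RLE normalization or DESeq2, 12 were higher and 24 lower. Of all genes, 33.5% were higher and 34.9% lower with RLE normalization, and 33.7% and 35% with DESeq2. Eif4a2 was 2.03-fold higher than at 0 h, at 998 ± 147 against 494 ± 101 CPM (SD, n = 5). These comparisons share the 0 h libraries, and the comparisons of pH and of IL-2 above share group libraries too.

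The groups outside these comparisons are given here for the members followed above (mean ± SD, n = 5). Eif4e was at 79.5 ± 8.12 CPM at 0 h and 126.0 ± 12.9 CPM at pH 7 + IL-2, and, without IL-2, at 26.8 ± 3.61, 26.8 ± 3.90 and 53.4 ± 3.72 CPM at pH 7.4, pH 7 and pH 6.6. For Eif4g1 the levels were 521.5 ± 133.5 CPM at 0 h, 699.8 ± 52.9 CPM at pH 7 + IL-2 and, in the medium without IL-2, 265.6 ± 14.4 (pH 7.4), 266.6 ± 13.4 (pH 7) and 287.9 ± 5.36 CPM (pH 6.6). The 0 h level of Eif4a1 was 358.3 ± 58.1 CPM, with 326.9 ± 22.3 CPM at pH 7 + IL-2 and 80.6 ± 14.2, 78.0 ± 12.7 and 116.1 ± 13.5 CPM at pH 7.4, pH 7 and pH 6.6 without the cytokine. These are the 3 parts of eIF4F. Eif5a was at 1122 ± 109.2 CPM at 0 h and 1135 ± 45.6 CPM at pH 7 + IL-2, and, without IL-2, at 195.8 ± 23.6, 176.3 ± 28.4 and 272.5 ± 27.1 CPM at pH 7.4, pH 7 and pH 6.6. For Eif6 the levels were 93.3 ± 16.5 CPM at 0 h, 90.6 ± 6.01 CPM at pH 7 + IL-2 and, in the medium without IL-2, 41.1 ± 4.56 (pH 7.4), 42.6 ± 7.45 (pH 7) and 52.8 ± 7.36 CPM (pH 6.6). The 0 h level of Eif2s1 was 180.2 ± 24.6 CPM, with 251.3 ± 32.4 CPM at pH 7 + IL-2 and 77.0 ± 7.35, 74.6 ± 4.25 and 99.5 ± 5.95 CPM at pH 7.4, pH 7 and pH 6.6 without the cytokine. As given above, the product of Eif5a helps ribosomes past slow peptide bonds, that of Eif6 keeps the subunits apart, and Eif2s1 is part of eIF2. Eif2b3 was at 24.8 ± 4.34 CPM at 0 h and 32.8 ± 4.82 CPM at pH 7 + IL-2, and, without IL-2, at 10.7 ± 1.30, 10.98 ± 0.751 and 10.4 ± 0.98 CPM at pH 7.4, pH 7 and pH 6.6. For Eif1a the levels were 140.3 ± 23.4 CPM at 0 h, 137.1 ± 16.9 CPM at pH 7 + IL-2 and, in the medium without IL-2, 42.0 ± 4.59 (pH 7.4), 37.0 ± 5.45 (pH 7) and 27.7 ± 2.77 CPM (pH 6.6). The 0 h level of Eif3b was 282.1 ± 42.4 CPM, with 374.2 ± 21.1 CPM at pH 7 + IL-2 and 123.5 ± 7.23, 123.0 ± 8.11 and 157.1 ± 14.6 CPM at pH 7.4, pH 7 and pH 6.6 without the cytokine. In each of these 9 genes the mean was highest at pH 7.4 + IL-2, lower at pH 7 + IL-2 and lower still at pH 6.6 + IL-2.

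Eif4a2 was at 494.2 ± 100.9 CPM at 0 h and 403.3 ± 38.2 CPM at pH 7 + IL-2, and, without IL-2, at 486.7 ± 81.4, 514.9 ± 61.9 and 1164 ± 170.1 CPM at pH 7.4, pH 7 and pH 6.6. For Eif2ak3 the levels were 215.3 ± 57.1 CPM at 0 h, 116.7 ± 8.81 CPM at pH 7 + IL-2 and, in the medium without IL-2, 268.8 ± 40.5 (pH 7.4), 267.6 ± 27.3 (pH 7) and 357.0 ± 51.0 CPM (pH 6.6). The 0 h level of Eif2s3y was 171.3 ± 31.4 CPM, with 141.3 ± 20.7 CPM at pH 7 + IL-2 and 250.9 ± 32.3, 245.3 ± 31.6 and 268.5 ± 35.9 CPM at pH 7.4, pH 7 and pH 6.6 without the cytokine. These 3 genes, and the 5 that follow, had their highest mean at pH 6.6 without IL-2 and their lowest at pH 7.4 + IL-2 or pH 7 + IL-2. Eif2a was at 176.2 ± 38.6 CPM at 0 h and 126.9 ± 16.1 CPM at pH 7 + IL-2, and, without IL-2, at 127.5 ± 13.9, 133.3 ± 9.73 and 240.9 ± 17.6 CPM at pH 7.4, pH 7 and pH 6.6. For Eif1 the levels were 532.6 ± 75.7 CPM at 0 h, 269.6 ± 29.6 CPM at pH 7 + IL-2 and, in the medium without IL-2, 386.6 ± 46.8 (pH 7.4), 389.1 ± 34.8 (pH 7) and 620.4 ± 68.2 CPM (pH 6.6). The 0 h level of Eif3f was 634.2 ± 128.7 CPM, with 418.2 ± 23.2 CPM at pH 7 + IL-2 and 596.0 ± 38.5, 585.1 ± 17.7 and 724.8 ± 31.6 CPM at pH 7.4, pH 7 and pH 6.6 without the cytokine. Both Eif1 and Eif2a act at the choice of start codon or initiator tRNA. Eif3e was at 605.3 ± 141.6 CPM at 0 h and 470.2 ± 67.6 CPM at pH 7 + IL-2, and, without IL-2, at 583.2 ± 74.6, 530.6 ± 30.1 and 676.2 ± 44.8 CPM at pH 7.4, pH 7 and pH 6.6. For Eif3m the levels were 312.4 ± 78.7 CPM at 0 h, 236.4 ± 23.4 CPM at pH 7 + IL-2 and, in the medium without IL-2, 274.0 ± 22.7 (pH 7.4), 269.2 ± 11.6 (pH 7) and 328.2 ± 13.3 CPM (pH 6.6).

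In sum over all 52 members, the TMM-scaled level was 13670 ± 1111 CPM at 0 h, 15510 ± 217 CPM at pH 7.4 + IL-2, 13190 ± 617 CPM at pH 7 + IL-2 and 11740 ± 331 CPM at pH 6.6 + IL-2 (SD, n = 5). Without IL-2 it was 9704 ± 481 CPM at pH 7.4, 9529 ± 258 CPM at pH 7 and 12400 ± 499 CPM at pH 6.6. Both pH 6.6 groups thus lay between the pH 7.4 groups, and the pH 6.6 groups overlapped each other.

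Regulators and partners of initiation outside the rule showed both directions. Of 25 listed, 14 were lower and 7 higher at pH 6.6 with IL-2, where 40.9% of all genes were lower and 35.4% higher, with a median of -0.56. Pdcd4, an inhibitor of eIF4A, was at 156, 107, 124, 87.1 and 98.9 CPM at pH 7.4 + IL-2 and at 433, 430, 516, 337 and 377 CPM at pH 6.6 + IL-2, without overlap. It rose by 1.88 ± 0.10 (adjusted p = 3.4e-17), and without IL-2 its value was -0.12 ± 0.10 (adjusted p = 0.27). Ppp1r15a, or GADD34, which directs the dephosphorylation of eIF2alpha, rose with IL-2 (1.51 ± 0.22, adjusted p = 3.1e-07) and without it (1.46 ± 0.22, adjusted p = 8.5e-07). Eif4ebp1, an inhibitor that binds eIF4E, fell by 1.25 (adjusted p = 2.5e-09), and Larp1, which binds mRNAs of the translation machinery, fell by 1.05 (adjusted p = 2.7e-12). Without IL-2, 10 of the 25 were higher and 5 lower, where 31.6% of all genes were higher and 35.4% lower.

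Among 9 elongation and termination factors, 3 were higher and 4 lower at pH 6.6 with IL-2, and 7 higher and 2 lower without it. The counts with IL-2 were near the shares of all genes (35.4% higher and 40.9% lower with IL-2, 31.6% and 35.4% without). Eef2k, the kinase that inhibits the elongation factor eEF2, rose with IL-2 (0.38 ± 0.09, adjusted p = 0.00060) and fell without it (-0.24 ± 0.09, adjusted p = 0.022). Among 8 mitochondrial translation factors, 1 was higher and 5 lower with IL-2, and 2 higher and 4 lower without it, to be read against the same shares.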

How the data were processed

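From stranded mRNA libraries, the authors deposited raw read counts for each of 48709 genes per library, without normalization. The submitters' processing notes name cutadapt 1.8, STAR 2.5.2b, HTSeq 0.6.1 and GRCm38; the strand setting of the counting is not given in the sources used here. Closing entries that name no gene were left out: reads aligned to several places (32.8 to 48.3%), outside genes (2.58 to 11.1%) and ambiguous (0.871 to 0.997%).

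Symbols, coordinates and exon lengths came from GENCODE M21. In R 4.3.3, edgeR 4.0.16 (filterByExpr, minimum count 10, TMM) fitted one robust quasi-likelihood model to all 35 libraries, with group terms and a block for replicate number, after tests on simulated data. p-values were adjusted by Benjamini-Hochberg over 13819 genes, with a threshold of 0.05. CPM and RPKM are TMM-scaled. The common biological coefficient of variation was 0.12. No same-group libraries agreed within sampling noise (70 pairs, lowest chi-square per degree of freedom 6.65).

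The study uses paired tests, and the numbers were checked: 95 of 105 same-numbered pairs of libraries had deviations that correlated above 0.1 (median 0.273, against -0.075 for 420 pairs with different numbers). Members, lists, tests and alternatives were chosen with earlier results of these data known. Full values were given for Eif4e, Eif4g1, Eif4a1, Eif2s1, Eif5a, Eif6 and Eif2ak3, for the member of each role with the largest change at pH 6.6 with IL-2 and an average log2 CPM no lower than 3, and for up to 8 members called against the majority. Alternatives were RLE normalization, library totals, DESeq2 1.42.0, looser and stricter filters, only the groups compared, no block, and leaving out each replicate.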

Additional observations from a re-analysis of the deposited data

Results flagged for a closer look

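For 12 of the 17 members whose values were given in full, the effect of pH 6.6 with IL-2 differed from that without IL-2 by the interaction test of edgeR's quasi-likelihood model. Over all genes tested, 34.3% had an interaction above 0 and 32.8% one below 0, so in both directions together the number called is near the background. Most of the 17 were picked for their change at pH 6.6 with IL-2. That change is a term of the interaction, so their selection favours such calls. The difference on the log2 scale (with IL-2 minus without) was -2.51 for Eif5a, -2.41 for Eif4e, -1.90 for Eif4a1, -1.86 for Eif2s1, -1.85 for Eif3b, -1.68 for Eif2b3, -1.44 for Eif4g1, -1.40 for Eif6 and -1.37 for Eif1a. It was 0.70 for Eif2s3y, 0.63 for Eif2ak3 and 0.39 for Eif3f, with adjusted p = 3.8e-05, 8.1e-05 and 0.0044.

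In 8 of 119 groups of 5 libraries, a single library stood apart from the other 4 by Dixon's test, where chance gives about 1 in 20. At 0 h these were Eif1 in replicate 5 (665 CPM, next 522), Eif1a in replicate 1 (99.9 CPM, next 146) and Eif2s3y in replicate 5 (226 CPM, next 165). Eif1a stood high in replicate 1 at pH 7.4 + IL-2 (199 CPM, next 169). Replicate 1 at pH 6.6 was low for Eif3b (131.8 CPM, next 158) and Eif4g1 (278.5 CPM, next 289). Eif3m was high in replicate 4 at pH 7 (289 CPM, next 268), and Eif6 in replicate 5 at pH 7.4 (48.9 CPM, next 40.1).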

How the results depend on the processing

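Of 396 recomputed counts and medians, 356 stayed within 1.5 times the count or within 1 SD of the replicate pairs' medians. With library totals alone, the median of the members was -0.39 (pH 6.6 against pH 7.4 with IL-2), -0.18 (pH 7 with IL-2), 0.12 (pH 6.6 without IL-2), 0.57, 0.37 and 0.021 (IL-2 at pH 7.4, pH 7 and pH 6.6) and -0.55 (interaction), where the median of all genes was -0.19 for pH 6.6 without IL-2, -0.20 and -0.16 for IL-2 at pH 7.4 and pH 7, and 0.27 for the interaction. Its counts were 18 lower at pH 7 with IL-2, 20 higher and 5 lower at pH 6.6 without IL-2, 11 lower for IL-2 at pH 7.4, and 8 higher and 3 lower for IL-2 at pH 6.6. The shares of all genes were, in this order, 6.27% lower, 23.2% higher and 43.8% lower, 46.6% lower, and 16.3% higher and 5.56% lower. With RLE normalization and with DESeq2, the median at pH 6.6 with IL-2 was -0.41, and 12 members were higher at pH 6.6 with IL-2 than at 0 h. In that comparison with 0 h, 33.5% of all genes were higher with RLE normalization and 33.7% with DESeq2. With only the groups compared, that median was -0.40, 2 members were lower at pH 7 without IL-2, and IL-2 at pH 6.6 gave 13 higher, 12 lower and a median of -0.01. In these fits 2.65% of all genes were lower at pH 7 without IL-2, and 22.4% were higher and 20.5% lower for IL-2 at pH 6.6. The stricter filter gave a median of 0.68 for IL-2 at pH 7.4. With the looser filter 4 members were lower for IL-2 at pH 6.6, as were 3.75% of all genes.

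Without the replicate block, IL-2 at pH 6.6 gave 4 lower members, where 7 were lower with it, and no other count of members moved by over 1.5 times (pH 7 with IL-2 gave 20 lower). Of all genes, 6.59% were then lower for IL-2 at pH 6.6 and 6.55% at pH 7 with IL-2. Leaving out each replicate gave medians from -0.48 to -0.39 at pH 6.6 with IL-2, 0.66 to 0.75 for IL-2 at pH 7.4, -0.076 to 0.014 for IL-2 at pH 6.6 and -0.78 to -0.69 for the interaction. Counts ran from 13 to 29 lower at pH 7 with IL-2, 3 to 5 higher and 3 to 5 lower for IL-2 at pH 6.6, and 6 to 10 lower at pH 7.4 with IL-2 against 0 h. The shares of all genes ran, in this order, from 4.59 to 9.41% lower, 9.79 to 13.2% higher and 5.46 to 7.76% lower, and 26.9 to 29% lower. For the 17 members given in full, 59 of 2244 recomputed values lost the call, 37 gained one and 0 called values changed sign; over all 50, only Eif2b5 did. The causes were not tested. Eif3j2 and Eif4e1b had too few counts to be tested, and for Eif3j2, with 8.2% unique windows, this need not mean a low level.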
